A study of Mus musculus with 8 samples.

Results

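The 10 genes described here belong to the tissue response to glucocorticoids, the steroid hormones of the adrenal cortex (corticosterone in mice). They were chosen by symbol, with earlier results of these data known, and were all found among the 49452 genes of the table. They comprise the receptor (Nr3c1) and the enzyme that regenerates active hormone inside cells (Hsd11b1). The other 8 genes are known to respond to the hormone (Fkbp5, Zbtb16, Klf9, Cebpd, Sgk1, Per1, Mt1 and Mt2). Brown adipose tissue (BAT), the fat that makes heat, was profiled by RNA-Seq in 8 libraries from male mice of the C57BL/6 strain with no transgene or deletion, in 4 groups of 2. Mice of 10 to 12 weeks were housed at 22 °C (replicates 4 and 7) or held at 4 °C for 24 h (replicates 2 and 11), the last 4 h of it without food. Mice of 32 weeks had received a control diet (CD, replicates 6 and 8) or a high-fat diet (HFD, replicates 2 and 6) for 28 weeks. It is not clear from the methods if food was also withdrawn from the warm group, and the time of day of dissection is not given in the sources used here. Cold and food withdrawal therefore cannot be told apart. The labels call the food of the CD group normal chow, while the methods describe a matched control diet.

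In the cell, the glucocorticoid receptor is held ready for hormone by heat shock protein chaperones, and after binding corticosterone it moves to the nucleus and activates genes next to its response elements. Local hormone supply depends on 11β-hydroxysteroid dehydrogenase type 1, the product of Hsd11b1, which turns inert 11-dehydrocorticosterone into corticosterone. Glucocorticoid levels follow a daily rhythm and rise with stress and fasting, and in brown fat the hormone is known for restraining thermogenic genes and for promoting lipid storage. Several of the response genes also answer to other signals, among them cAMP, metals, inflammation and the circadian clock.

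On the assembly GRCm38, Hsd11b1 (ENSMUSG00000016194) spans chr1:193221634-193264075 on the minus strand, Zbtb16 (ENSMUSG00000066687) chr9:48654297-48836222 on the minus strand and Fkbp5 (ENSMUSG00000024222) chr17:28399095-28517524 on the minus strand. Sgk1 (ENSMUSG00000019970) spans chr10:21882184-21999903, Per1 (ENSMUSG00000020893) chr11:69095217-69109960, Cebpd (ENSMUSG00000071637) chr16:15887286-15891031 and Klf9 (ENSMUSG00000033863) chr19:23141226-23166911, all on the plus strand. Mt2 (ENSMUSG00000031762) at chr8:94172664-94173568 and Mt1 (ENSMUSG00000031765) at chr8:94179082-94180327 are neighbours on the plus strand. All 10 genes are protein-coding, Nr3c1 (ENSMUSG00000024431) included. Other annotated genes overlap 5 of the members. Of these, Lamb3 opposite Hsd11b1 reached 0.796 to 4.43 FPKM (fragments scaled to transcript length and to all those mapped in the library) and Spidr opposite Cebpd 1.11 to 2.79 FPKM. The libraries were directional, but whether the authors' FPKM used the strand is not stated, so a part of the low Cebpd values could not be separated from Spidr.

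Windows at RefSeq start sites of 3 members are shown because they carry the letter patterns for which these genes are known. Windows of 250 bases before to 50 bases after a start were taken from RefSeq (GRCm38.p6), which gave 13 windows for 7 members, 6 of them for Sgk1, and none were searched for Nr3c1, Zbtb16 and Cebpd. One Sgk1 window, chr10:21993640-21993939 on the plus strand, holds the full palindrome of the glucocorticoid response element (AGAACA, any 3 bases, then TGTTCT, searched on both strands), printed in capitals, which begins at position -189 from the start site. Only 3 of 32851 windows (0.00913%) hold this pattern, those of Sgk1, Acnat2 and Gm35041. The Mt2 window (chr8:94172368-94172667) holds 4 and the Mt1 window (chr8:94178839-94179138) 3 core letters of metal response elements, TGCGCNC or TGCACNC on either strand and likewise in capitals. The GENCODE model of Mt2 starts further downstream, at 94172664, so that most of the last 50 bases of its window lie before that gene model, while those of the Mt1 and Sgk1 windows are each held by a GENCODE transcript. At least 3 such cores occur in 1.97% of windows, TGCGCNC in 15.4% and TGCACNC in 12.6%.
Sgk1: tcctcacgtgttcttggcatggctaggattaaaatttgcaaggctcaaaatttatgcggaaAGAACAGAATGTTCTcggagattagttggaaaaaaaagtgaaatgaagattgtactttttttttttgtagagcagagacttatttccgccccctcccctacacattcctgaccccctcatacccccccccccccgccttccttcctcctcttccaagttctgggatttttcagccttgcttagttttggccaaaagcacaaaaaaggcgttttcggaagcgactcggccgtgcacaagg
Mt2: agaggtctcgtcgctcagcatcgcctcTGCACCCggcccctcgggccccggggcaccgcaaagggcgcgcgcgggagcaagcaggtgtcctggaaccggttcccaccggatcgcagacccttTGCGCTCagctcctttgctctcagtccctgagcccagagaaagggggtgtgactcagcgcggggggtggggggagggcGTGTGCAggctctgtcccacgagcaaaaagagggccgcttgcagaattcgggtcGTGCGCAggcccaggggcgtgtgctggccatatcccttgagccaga
Mt1: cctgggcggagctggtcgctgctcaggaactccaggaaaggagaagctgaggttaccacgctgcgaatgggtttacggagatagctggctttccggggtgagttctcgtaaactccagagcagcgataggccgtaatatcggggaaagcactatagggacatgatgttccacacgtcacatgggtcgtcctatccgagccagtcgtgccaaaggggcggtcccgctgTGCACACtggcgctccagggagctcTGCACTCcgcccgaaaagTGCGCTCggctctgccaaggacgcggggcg
The palindrome contains its 6-letter arm AGAACA on both strands, which by itself is in 19% of windows. The clock E-box CACGTG, present in 7.15% of windows, was found in 1 window each of Per1, Fkbp5 and Sgk1. The cAMP response element TGACGTCA, present in 1.79%, was in none of the 13. These matches describe letters in short windows, and no binding was measured.

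Between 10228 and 11436 genes reached 1 FPKM per library, and replicates correlated across genes with r 0.968 to 0.982 on log2(FPKM + 1). The table holds no counts. By the spacing of low values, 1 fragment on 2000 bases is worth 0.0044 to 0.00602 FPKM. On the longest annotated Cebpd transcript, of 3746 bases, the lowest Cebpd value would rest on about 213 fragments. A shorter transcript would give fewer, and the figure bears on counting error only. In each group, 1 library has the satellite-repeat gene Gm10800 above 100 FPKM (HFD replicate 2, CD replicate 8, 4 °C replicate 11 and 22 °C replicate 4, called satellite-high here) and the other does not (satellite-low). Gm10800 was 15700, 9040, 447 and 6460 FPKM in the satellite-high libraries in that order. The satellite-high cold pair was thus less alike than the diet pair, which a covariate of high or low does not take into account. Brown adipocyte markers summed to 7110 to 7460 FPKM at 22 °C and 14600 to 17000 at 4 °C. Under CD they summed to 8350 to 14800 and under HFD to 9130 to 13100. In both cold libraries 5 of the 8 were higher and 2 lower, where 37.9% and 20.6% of all genes tested were. The cold rise of the sum was mostly that of Ucp1 (mean 1063 to 5916 FPKM) and Fabp4 (3620 to 7257). Adipoq (604 to 348) and Prdm16 (6.28 to 3.42) were the 2 lower ones. The median log2 fold change of the 8 was 0.22, against 0.21 over mRNA genes of at least 1 FPKM on average. Skeletal muscle markers (11 found of 12) summed to 101 to 508 FPKM at 22 °C and 1840 to 3910 at 4 °C. Under CD they summed to 530 to 1450 and under HFD to 15.7 to 177. All 11 were higher in both cold libraries (37.9% of all genes tested) and 10 lower in both HFD libraries (5.80%). Of the 11, Myh7, a slow muscle myosin, passed the threshold given below in the cold (log2 fold change 3.94, adjusted p 0.0176). Of all genes tested, 1.22% were called higher there. Macrophage markers summed to 10.3 to 22.1 FPKM under CD and 62.9 to 72.3 under HFD. All 6 were higher in both HFD libraries, where 39.9% of all genes tested were. White adipocyte markers (5 genes) summed to 69.9 to 117 FPKM at 22 °C and 214 to 320 at 4 °C. Under CD these white adipocyte markers summed to 14 to 24 and under HFD to 102 to 130. In both cold libraries 3 of the 5 were higher and 1 lower (37.9% and 20.6% of all genes tested). In both HFD libraries 4 were higher and 0 lower (39.9% and 5.80%). The cold sum rose mostly with Retn (mean 69.0 to 171.6 FPKM) and Nnmt (16.3 to 85.7), and the HFD sum mostly with Lep (1.62 to 72.6). Of the 5, Nnmt passed in the cold (log2 fold change 2.33, adjusted p 0.0278) but not under HFD (1.90, adjusted p 0.145). Lep passed under HFD (5.005, adjusted p 0.0425) but not in the cold (-2.13, adjusted p 0.0527). Under HFD 0.0513% of all genes tested were called higher, against 1.22% in the cold. Endothelial markers summed to 74.5 to 76.2 FPKM at 22 °C, 80.8 to 113 at 4 °C, 62.1 to 63.7 under CD and 92.9 to 93.4 under HFD. Lymphoid markers summed to 4.05 to 4.09, 2.21 to 3.48, 2.14 to 4.39 and 6.36 to 10.6 FPKM in the same order of groups, and erythroid markers to 157 to 163, 64.3 to 349, 436 to 802 and 562 to 1270 FPKM. In bulk tissue, fewer cells of a type and less RNA per cell cannot be told apart, and the part of these markers in the results below was not tested.

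The first comparison asked how these genes stood in BAT after 24 h at 4 °C. Cebpd and Fkbp5 rose past the threshold (limma, adjusted p under 0.05 and at least 2-fold, adjusted over all genes tested), with mean FPKM 9.8-fold and 8.2-fold higher than at 22 °C. Zbtb16, Mt2, Mt1, Sgk1, Klf9 and Per1 were higher in both cold libraries than in both 22 °C libraries and at least 2-fold on the log2(FPKM + 1) scale, with adjusted p of 0.0565 to 0.0754, and did not pass. After quantile normalization and after rescaling, Sgk1 (0.87 and 0.98), Klf9 (0.76 and 0.86) and Per1 (0.80 and 0.71) were under 2-fold, as was Per1 after median centring (0.81). All 8 response genes had an unadjusted p under 0.05, as did 24.5% of all genes tested. Nr3c1 was a little higher and Hsd11b1 overlapped between the groups. Past the threshold were thus 2 of 10 genes higher and 0 lower, where 1.22% of the 17477 genes tested were called higher and 0.223% lower. This split of all calls, 213 higher and 39 lower, moved with the scaling, being 481 and 270 with median centring, 313 and 178 with quantile normalization and 304 and 271 with values rescaled to the summed autosomal mRNA and lncRNA. Of the 10, 9 were above both controls and 0 below both, where 37.9% of all genes were above and 20.6% below. The median log2 fold change of the 10 was 1.55, against 0.07 over all genes tested and 0.21 over mRNA genes of at least 1 FPKM on average, and 5.44% of all genes were higher by 2-fold or more. The number of members past the threshold ran from 0 (with no filter on low values, or without 4 °C replicate 2) to 8 (with library type as a covariate).

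The second comparison asked the same of HFD against CD. In the labels, the description of CD replicate 6 starts with another prefix than those of the other diet libraries. Prefix and diet can thus not be fully told apart. No member passed the threshold, while 5 of the 10 had an unadjusted p under 0.05 in limma, as did 14.4% of all genes tested. Zbtb16 and Fkbp5 were higher in both HFD libraries, with mean FPKM 5.4-fold and 4.1-fold that of CD, and Hsd11b1 was 2.90-fold lower. Per1, Klf9, Cebpd and Sgk1 were higher in both HFD libraries by 0.61 to 0.75 on the log2 scale, and Nr3c1, Mt1 and Mt2 overlapped. Median centring lowered these 4 values to 0.39 for Per1 and Klf9, 0.35 for Cebpd and 0.25 for Sgk1. Without HFD replicate 6, Sgk1 was 0.25 and Cebpd 0.35, and without CD replicate 8 Klf9 was 0.49. Among the 17543 genes tested, 0.0513% were called higher and 0.0171% lower. Of the 10, 6 were above both CD libraries and 1 below both, where 39.9% of all genes were above and 5.80% below. With library type as a covariate 3 passed, Fkbp5 and Zbtb16 higher and Hsd11b1 lower. The median log2 fold change was 0.66 for the 10 and 0.18 for all genes tested (0.29 for mRNA genes of at least 1 FPKM on average). In each comparison 1 library of the treated group carried the higher values for every member, HFD replicate 6 over replicate 2 (70.5% of all genes) and 4 °C replicate 2 over replicate 11 (70.9% of all genes).

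**Figure D1:**
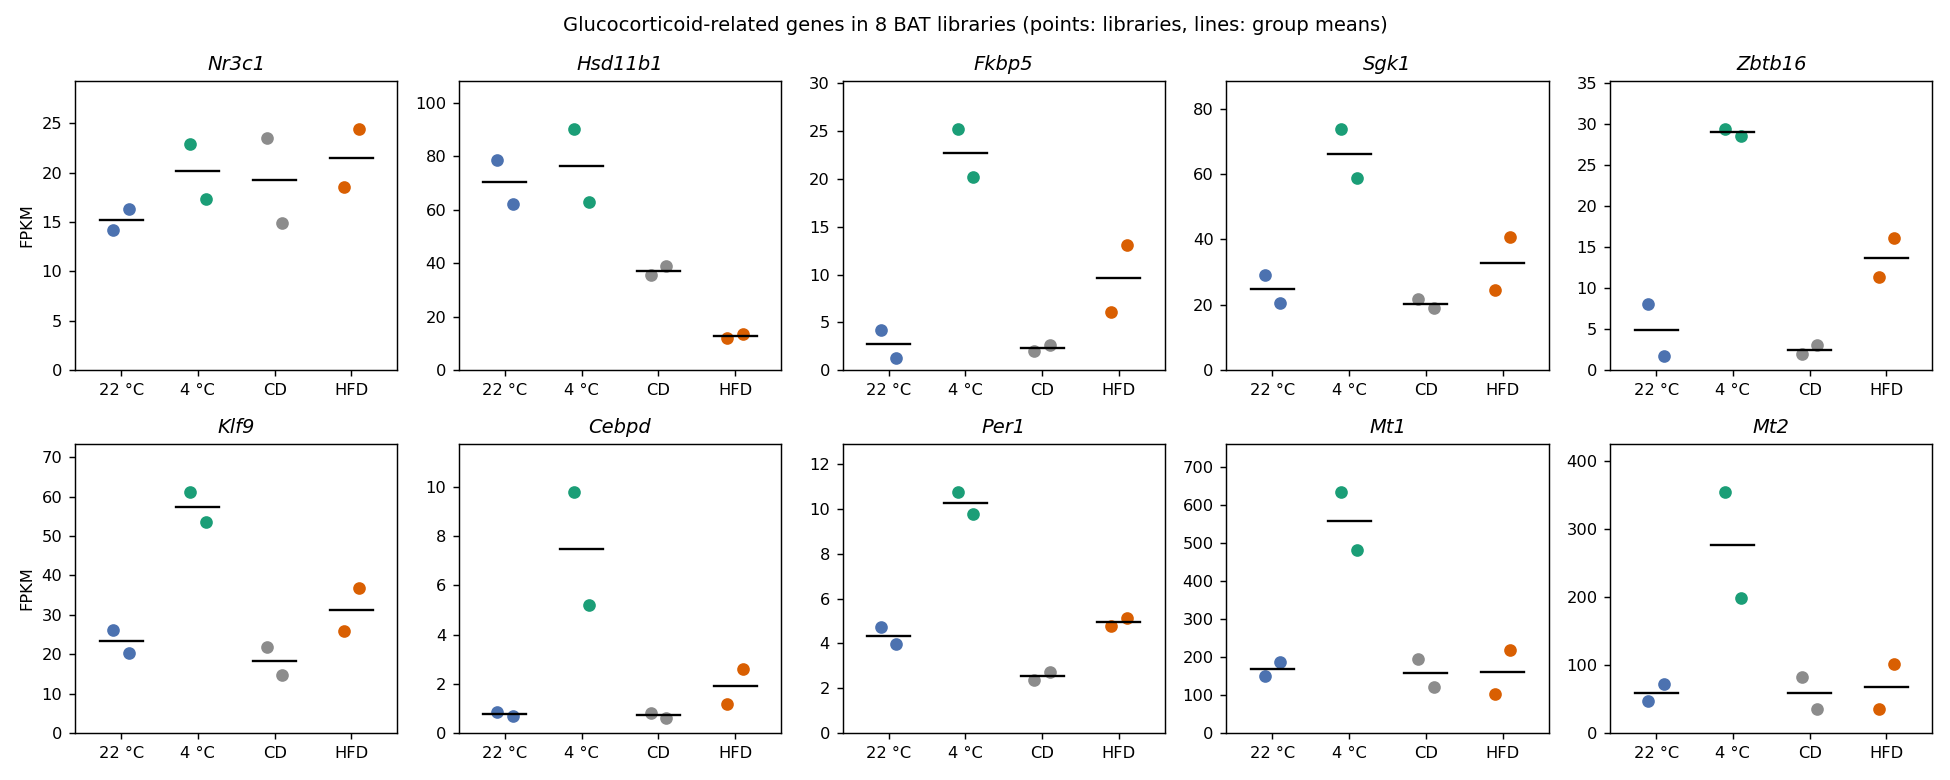
FPKM (linear axis from 0, one scale per gene) of each of the 10 genes in the 8 libraries, with points for libraries and a line for the mean of each group of 2. Both 4 °C points lie above both 22 °C points for every gene but Hsd11b1, whose HFD points (11.9 and 13.7 FPKM) are the lowest of all 8.

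**Figure D2:**
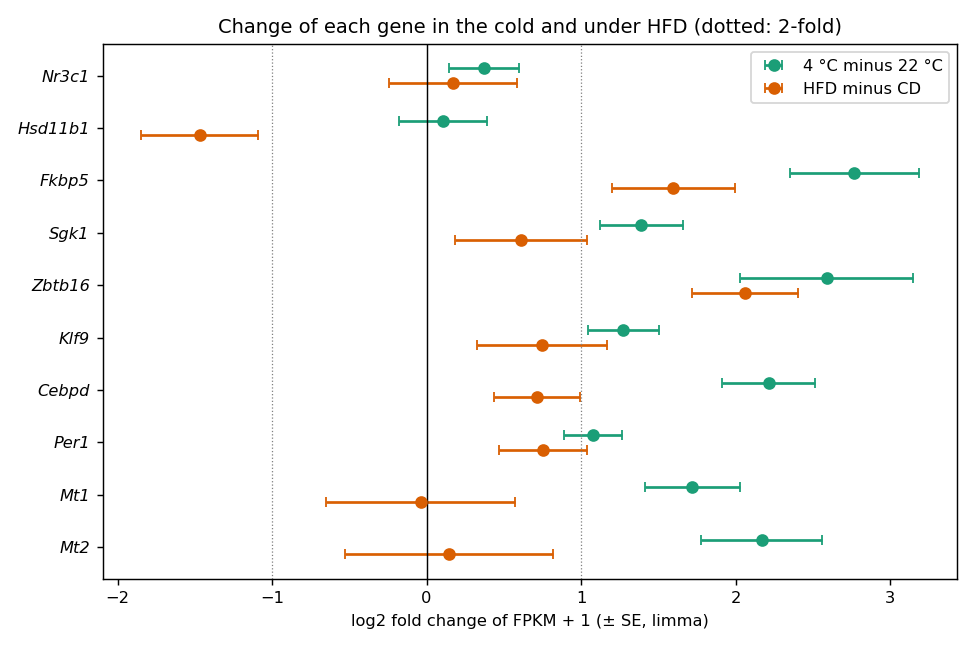
Log2 fold change of FPKM + 1 with limma's SE for each gene, 4 °C minus 22 °C in green and HFD minus CD in orange, with dotted lines at 2-fold. Fkbp5 (2.77) and Zbtb16 (2.59) have the largest cold values, and Hsd11b1 under HFD (-1.47) is the only value past 2-fold in the lower direction.

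Nr3c1 encodes the glucocorticoid receptor, the nuclear receptor through which the hormone acts. Its level was 14.2 and 16.3 FPKM at 22 °C and 22.9 and 17.4 FPKM at 4 °C. Both cold libraries were above both controls, but the difference of 0.37 on the log2 scale (SE 0.22, adjusted p 0.363) was of the size of the spread between replicates. Under CD it was 23.6 and 14.9 FPKM and under HFD 18.6 and 24.4 FPKM, and the groups overlapped (log2 fold change 0.17, SE 0.41, adjusted p 0.882). The direction was not stable to scaling, as quantile normalization gave -0.03 in the cold and -0.07 under HFD. The receptor was the member with the narrowest range of group means, 15.3 to 21.5 FPKM.

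Hsd11b1 was lower in every library of the diet experiment than in any library of the cold experiment. At 22 °C it was 78.5 and 62.3 FPKM and at 4 °C 90.2 and 62.9 FPKM, so that the groups overlapped (log2 fold change 0.11, SE 0.28, adjusted p 0.853). Quantile normalization put the cold value at -0.45 and median centring at -0.16. Under CD, in older mice, it was 35.5 and 38.9 FPKM, and under HFD 11.9 and 13.7 FPKM. Both HFD libraries were far below both CD libraries and close to each other. On the log2 scale the difference was -1.47 (SE 0.38, unadjusted p 0.00545, adjusted p 0.171 in limma). Without CD replicate 6, whose label prefix is another than that of the other diet libraries, the difference was -1.53. It was -1.63 between satellite-high and -1.31 between satellite-low libraries, and adjusted p ran from 0.0073, with library type as a covariate, to 0.902 over the alternatives. The cold and diet experiments differ in the age of the mice, and no test was made across them.

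Fkbp5 encodes a co-chaperone of the receptor that lowers its affinity for hormone and is widely used as a readout of receptor activity. Its level was 4.25 and 1.28 FPKM at 22 °C and 25.2 and 20.2 FPKM at 4 °C. The cold libraries lay close together and the controls far apart, with 22 °C replicate 4 far above replicate 7. Fkbp5 rose in the cold by 2.77 log2 units (SE 0.42, adjusted p 0.0499). The call was lost without 4 °C replicate 2 (2.61, adjusted p 0.147) or without replicate 11 (2.92, adjusted p 0.0722), after quantile normalization (2.45, adjusted p 0.0517), with a pseudocount of 0.1 (3.21, adjusted p 0.0533) and with no filter on low values (adjusted p 0.179), and adjusted p ran from 2.44e-05 to 0.179 over the alternatives. The CD libraries had 1.98 and 2.69 FPKM and the HFD libraries 6.12 and 13.1 FPKM. The diet groups did not overlap, and the difference of 1.60 (SE 0.40) had an adjusted p of 0.17. That value passed without CD replicate 6 (1.44, adjusted p 0.0397), CD replicate 8 (1.75, adjusted p 0.0129) or HFD replicate 2 (2.09, adjusted p 0.0202), and did not pass without HFD replicate 6 (1.10, adjusted p 0.719). Over the alternatives, adjusted p ran from 0.0129 to 0.719. Between satellite-high libraries Fkbp5 was higher by 2.01 in the cold and 0.95 under HFD, and between satellite-low libraries by 3.52 and 2.25. The description of CD replicate 6 in the labels starts with another prefix than those of the other diet libraries, so the value without that replicate is the one within a single prefix.

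Among the transcription factors, Zbtb16 (PLZF), a zinc-finger factor strongly induced by glucocorticoids in many tissues, followed Fkbp5 closely. It was 8.09 and 1.74 FPKM at 22 °C and 29.4 and 28.6 FPKM at 4 °C. The cold libraries were nearly equal while the controls differed, and the log2 fold change was 2.59 (SE 0.56, adjusted p 0.0754). It passed without 22 °C replicate 4 (3.46, adjusted p 2.21e-05) and without replicate 7 (1.72, adjusted p 0.0137), and also after median centring, with library type as a covariate and with 8 libraries in one fit, and adjusted p ran from 2.21e-05 to 0.216 over the alternatives. With CD it was at 2.02 and 3.02 FPKM and with HFD at 11.4 and 16.1 FPKM, the largest HFD difference among the members (2.06, SE 0.35, adjusted p 0.12, unadjusted p 0.000463). Leaving out CD replicate 6 gave 1.85 with an adjusted p of 0.00573 and leaving out HFD replicate 6 gave 1.83 with 0.163, and adjusted p ran from 0.000497 to 0.528 over the alternatives. Between satellite-high libraries it was higher by 1.70 in the cold and 1.62 under HFD, and between satellite-low libraries by 3.47 and 2.50.

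Klf9, a Krüppel-like factor known as a direct receptor target, was 26.2 and 20.4 FPKM at 22 °C and 61.2 and 53.6 FPKM at 4 °C. No cold library came near a control, and the log2 fold change was 1.27 (SE 0.23, adjusted p 0.0594). CD libraries had 21.7 and 14.8 FPKM and HFD libraries 25.9 and 36.7 FPKM, a difference of 0.75 (SE 0.42, adjusted p 0.474) without overlap. Cebpd encodes C/EBPδ, an early factor of adipocyte differentiation that also responds to inflammation and cAMP. It was 0.855 and 0.675 FPKM at 22 °C and 9.80 and 5.19 FPKM at 4 °C. It rose by 2.21 (SE 0.30, adjusted p 0.0442), the smallest adjusted p of the 10, and lost the call without 4 °C replicate 2 (1.81, adjusted p 0.109), with adjusted p from 0.000233 to 0.171 over the alternatives. It stood at 0.797 and 0.625 FPKM under CD and under HFD at 1.17 and 2.62 FPKM. The HFD libraries were above both CD libraries, but differed more from each other than the CD libraries did (log2 fold change 0.71, SE 0.28, adjusted p 0.304).

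Sgk1 encodes a serine/threonine kinase that regulates ion transport and lies downstream of both glucocorticoid and mineralocorticoid receptors, and has the palindrome shown above in 1 of its windows. It was 29.2 and 20.5 FPKM at 22 °C and 73.7 and 58.9 FPKM at 4 °C. Even the lower cold library was far above the higher control, and the log2 fold change was 1.39 (SE 0.27, adjusted p 0.0627). Under CD it was 21.7 and 19.1 FPKM and under HFD 24.4 and 40.9 FPKM. One HFD library was thus close to CD and the other far above it (0.61, SE 0.43, adjusted p 0.566).

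Per1, a repressor in the circadian clock whose gene is also induced directly by glucocorticoids, was 4.74 and 3.96 FPKM at 22 °C and 10.8 and 9.78 FPKM at 4 °C. Its replicates lay close together in both groups, and the log2 fold change was 1.08 (SE 0.19, adjusted p 0.0565). Under CD it was 2.38 and 2.71 FPKM and under HFD 4.80 and 5.14 FPKM. The groups were again apart (0.75, SE 0.28, adjusted p 0.298). Because 1 is added before the logarithm, this fold is smaller than the 2.0-fold ratio of mean FPKM.

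Mt1 and Mt2 encode metallothioneins, small cysteine-rich proteins that bind zinc and copper and are induced by metals, glucocorticoids and cold. Mt1 was 150.3 and 186 FPKM at 22 °C and 635 and 481 FPKM at 4 °C (log2 fold change 1.72, SE 0.31, adjusted p 0.0584). Mt2 was 47.0 and 71.6 FPKM at 22 °C and 354 and 198 FPKM at 4 °C (2.17, SE 0.39, adjusted p 0.0587). Mt1 was the most abundant member per length in all 8 libraries, and both genes were well above the controls in both cold libraries. Without 22 °C replicate 7 both passed, Mt1 at 1.87 (adjusted p 0.0179) and Mt2 at 2.47 (adjusted p 0.00101). Neither passed without 22 °C replicate 4 (1.57, adjusted p 0.196, and 1.87, adjusted p 0.0745) or without either 4 °C library (adjusted p 0.0591 to 0.138). Over the alternatives, adjusted p ran from 0.0179 to 0.196 for Mt1 and from 0.00101 to 0.186 for Mt2. Under CD, Mt1 was 196 and 121 FPKM and Mt2 82.3 and 34.8 FPKM. Under HFD, Mt1 was 103 and 219 FPKM and Mt2 34.5 and 102 FPKM. Within each diet group both genes were high in the same library, CD replicate 6 and HFD replicate 6, and the groups overlapped (log2 fold change -0.04, SE 0.61, for Mt1 and 0.15, SE 0.67, for Mt2). The ratio of Mt1 to Mt2 FPKM ran from 1.79 to 3.49 over the libraries.

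**Figure D3:**
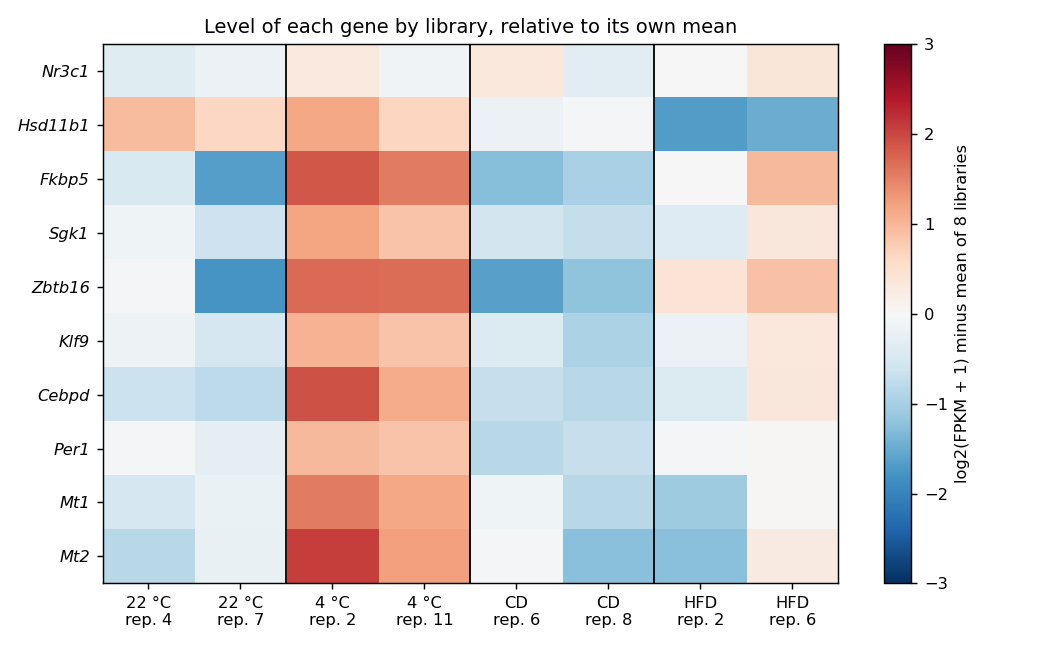
Log2(FPKM + 1) of each gene minus its mean over the 8 libraries, red for higher and blue for lower, by group and replicate. Both 4 °C libraries are red for the 8 response genes, HFD replicate 6 is redder than HFD replicate 2 for every gene, and Hsd11b1 stands apart with blue HFD libraries and red libraries of both younger groups.

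Across the 4 groups, mean FPKM was highest at 4 °C for every member but Nr3c1. HFD came second for 7 of the 8 response genes, Mt1 being the exception, and CD was lowest for all 8. Neighbours in that order often overlapped, as for Mt1 under 22 °C, HFD and CD (means 168, 161 and 159 FPKM). Over the 8 libraries, Fkbp5 and Zbtb16 had a Pearson r of 0.979 on log2(FPKM + 1), Mt1 and Mt2 0.988 and Sgk1 and Klf9 0.981. Hsd11b1 had an r of 0.0516 with Fkbp5 and Nr3c1 an r between -0.359 and 0.539 with the other members. These values describe 8 libraries that share group structure. Among 9922 protein-coding autosomal genes of at least 1 FPKM on average, those most like Fkbp5 were Fam107a (r 0.989), Zbtb16 and Syn2 (0.971). Those most like Zbtb16 were Fkbp5, Wwp2 (0.968) and Jdp2 (0.966), and those most like Mt2 were Mtfp1 (0.996), Atg4d (0.990) and Mt1.

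Other genes known to respond to glucocorticoids were read from a list of 26, of which 24 could be tested. The list was chosen with earlier results of these data known. The shares of all genes set beside its counts are thus a description and no test of the list. In the cold 4 passed, all higher (1.22% of all genes were called higher and 0.223% lower), and 21 were above both controls and 1 below (37.9% and 20.6% of all genes). Mfsd2a, a lysophospholipid transporter, went from 1.17 and 0.212 FPKM at 22 °C to 51.9 and 57.8 FPKM at 4 °C (log2 fold change 5.10, SE 0.31, adjusted p 0.0176). Cdkn1a, the cell-cycle inhibitor p21, rose by 3.77 (adjusted p 0.0218), Ddit4, an inhibitor of mTORC1, by 2.61 (adjusted p 0.0196), and Lpin1, a phosphatidate phosphatase, by 1.52 (adjusted p 0.0495). All 4 lost the call without 4 °C replicate 2 (adjusted p 0.107 for Mfsd2a, 0.108 for Cdkn1a, 0.0892 for Ddit4 and 0.121 for Lpin1) and with no filter on low values (adjusted p 0.13 to 0.171). Lpin1 lost it also after quantile normalization (0.98, adjusted p 0.0952) and without 22 °C replicate 4 (adjusted p 0.178) or 4 °C replicate 11 (adjusted p 0.0613). The list's median log2 fold change was 1.09. Under HFD none passed in limma, and 7 of the 24 had an unadjusted p under 0.05 (14.4% of all genes). Above both CD libraries were 15, and 0 were below (39.9% and 5.80% of all genes), and the median was 0.67. The largest values there were those of the phosphatase gene Dusp1 (1.97, adjusted p 0.166), of Lcn2, lipocalin 2 (1.59, adjusted p 0.305) and of the sulfotransferase gene Sult1a1 (1.57, adjusted p 0.22). With library type as a covariate, Dusp1 (adjusted p 0.00494), Lcn2 (adjusted p 0.0222) and Sult1a1 (adjusted p 0.00598) passed. The Lcn2 value turned on 1 CD library, being 2.60 without CD replicate 6 (adjusted p 1.37e-06) and 0.59 without CD replicate 8 (adjusted p 0.655). Without CD replicate 6, Dusp1 (2.24, adjusted p 0.00172) and Sult1a1 (1.92, adjusted p 0.0194) passed too. Without CD replicate 8 (1.69, adjusted p 0.0722, and 1.21, adjusted p 0.316) or HFD replicate 6 (1.42, adjusted p 0.711, and 1.09, adjusted p 0.9999) neither did. Dusp1 (2.52, adjusted p 0.0331) and Lcn2 (1.88, adjusted p 0.0439) passed without HFD replicate 2. Tsc22d3, which encodes the glucocorticoid-induced leucine zipper, is on the X chromosome, whose genes are listed at 0 in both 22 °C libraries and CD replicate 6. In the other libraries it was 94.8 and 56.7 FPKM at 4 °C, 11.9 in CD replicate 8 and 26.1 and 57.7 under HFD, with no test.

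**Figure D4:**
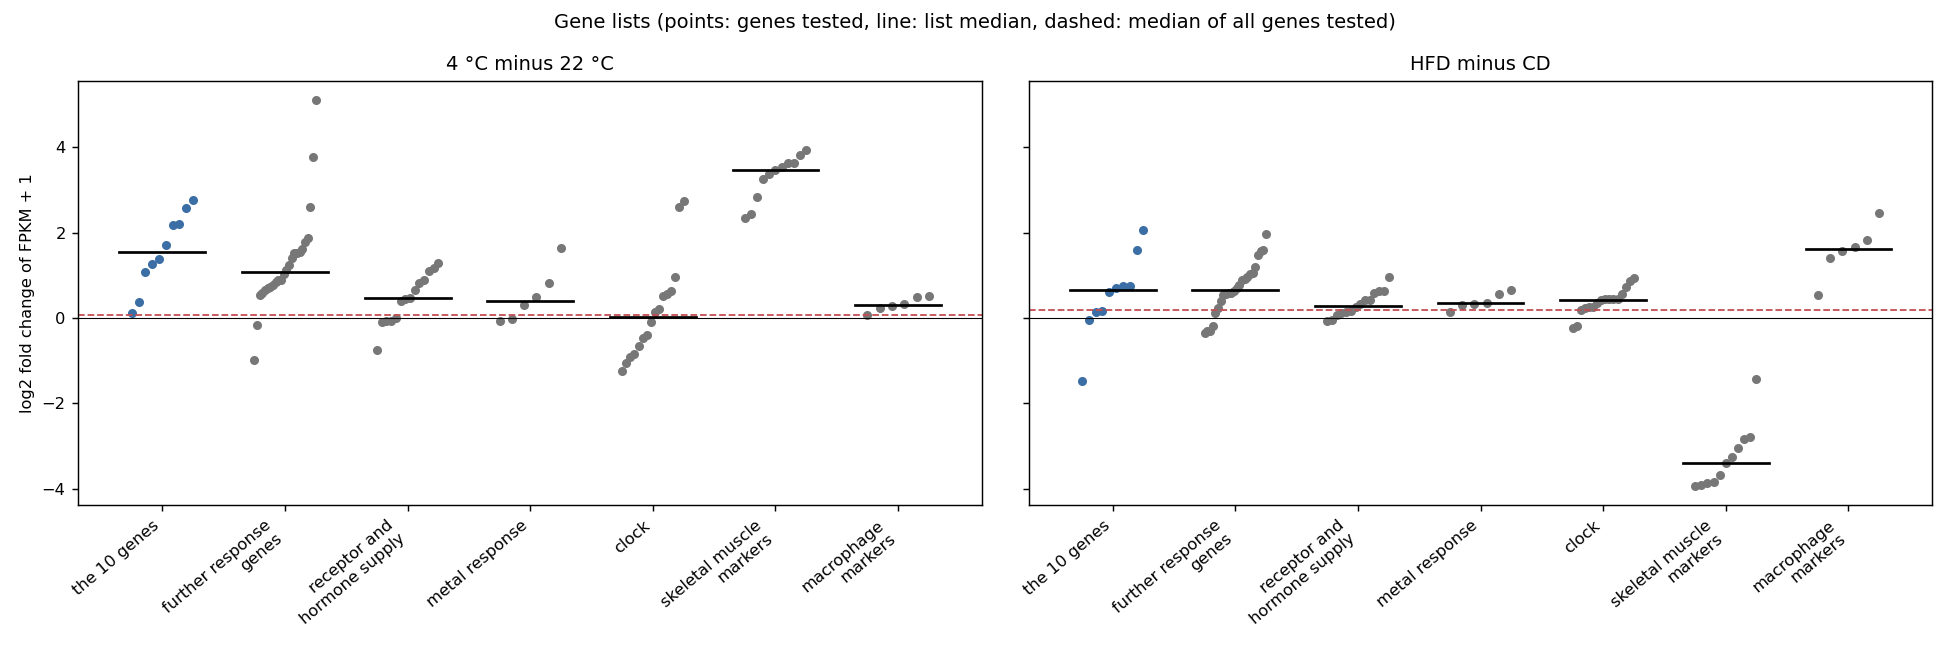
Log2 fold change of FPKM + 1 of every tested gene in 7 lists (points), with list medians (black lines) and the median of all genes tested (red dashed line), for the cold on the left and HFD on the right. The 10 genes (medians 1.55 and 0.66) and the further response genes (1.09 and 0.67) lie above the dashed line in both panels, while muscle markers lie at 3.46 in the cold and -3.39 under HFD.

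The genes of receptor handling and hormone supply (chaperones, cofactors and steroid enzymes, 14 of 16 tested) had no call in either comparison. In limma 7 of the 14 had an unadjusted p under 0.05, in either direction, in the cold and 0 under HFD, against 24.5% and 14.4% of all genes. In the cold 8 were above both controls and 2 below (37.9% and 20.6% of all genes). Under HFD 5 were above both CD libraries and 0 below (39.9% and 5.80% of all genes). The largest cold values were those of the chaperone genes Hsp90aa1 (1.29, adjusted p 0.0611), Hspa8 (1.17, adjusted p 0.0867) and Stip1 (1.10, adjusted p 0.0632). All 3 were under 2-fold after quantile normalization (0.78, 0.67 and 0.71) and with rescaled values (0.88, 0.75 and 0.71). With library type as a covariate, Hsp90aa1 (adjusted p 0.0313) and Stip1 (adjusted p 0.0387) passed, and Hspa8 did not (adjusted p 0.0532). Hsp90aa1 and Stip1 passed also with X, Y and mitochondrial genes kept (adjusted p 0.0424 and 0.0455), and Hsp90aa1 after median centring (1.03, adjusted p 0.0387). Under HFD they were those of the chaperone gene Dnajb1 (0.96, adjusted p 0.434) and of the cofactor genes Ncor1 (0.64, adjusted p 0.511) and Nrip1 (0.64, adjusted p 0.453). Dnajb1 turned on 1 CD library, being 1.53 without CD replicate 6 (adjusted p 0.0331) and 0.39 without CD replicate 8 (adjusted p 0.832). Ncor1 and Nrip1 were both 0.28 after median centring, and Nrip1 was 0.31 without HFD replicate 6. Hsd11b2, which inactivates corticosterone, and Serpina6, which encodes its plasma carrier, were too low to be tested.

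Metal response genes other than the members (6 of 7 tested) had 1 call in the cold, a higher one, where 1.22% of all genes had one. Slc39a14, a zinc importer, was 2.97 and 3.42 FPKM at 22 °C and 13.4 and 10.7 FPKM at 4 °C, a rise of 1.63 (SE 0.20, adjusted p 0.0415) whose call was lost without 4 °C replicate 2 (adjusted p 0.119). Mtf1, the metal-sensing factor that binds the cores shown above, was 1.45 and 2.13 FPKM at 22 °C and 2.99 and 2.83 FPKM at 4 °C (0.50, adjusted p 0.2). Under HFD none passed, and the largest values were those of the zinc importer gene Slc39a10 (0.65, adjusted p 0.387), Mt3 (0.56, adjusted p 0.17) and Mtf1 (0.35, adjusted p 0.563). Slc39a10 was 0.37 without CD replicate 8 and 0.29 after median centring. Mt3 was 1.59 with a pseudocount of 0.1 and 0.20 after median centring, and Mtf1 was -0.0086 after median centring.

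Clock genes, 16 tested, bear on Per1. In the cold 1 passed, the repressor gene Nfil3, which rose by 2.74 (adjusted p 0.0196, and 0.0838 without 4 °C replicate 2), where 1.22% of all genes were called higher. Above both controls were 7 of the 16 and below both 6, where 37.9% and 20.6% of all genes were. In limma 10 of the 16 had an unadjusted p under 0.05, in either direction, as did 24.5% of all genes tested. The median of 0.02 joins genes that were higher and genes that were lower, and does not mean that the list was unchanged. The output gene Dbp was at 11.9 and 13.3 FPKM at 22 °C and 4.31 and 5.31 FPKM at 4 °C, and the activator gene Arntl at 0.361 and 0.552 against 13.02 and 4.62 FPKM, neither past the threshold (adjusted p 0.0517 and 0.0539), and Arntl was picked after its values were seen. The part of these genes in the Per1 and Klf9 values was not tested. Under HFD none passed, and none had an unadjusted p under 0.05 in limma. The largest values were those of Dbp (0.94, adjusted p 0.662), Nr1d1 (0.87, adjusted p 0.412) and Per2 (0.74, adjusted p 0.397). Dbp was 2.19 without CD replicate 6, -0.30 without CD replicate 8 and 0.03 without HFD replicate 2. Between satellite-high libraries Dbp was higher by 3.1, and between satellite-low libraries it was -1.22. Per2 passed without CD replicate 6 (1.23, adjusted p 0.0196) and was 0.25 without CD replicate 8 (adjusted p 0.879), and Nr1d1 ran from 0.47 without CD replicate 6 to 1.26 without CD replicate 8, with no call. Dbp differed within the diet groups by more than between them, with 7.45 and 0.511 FPKM under CD and 12.01 and 2.64 FPKM under HFD, while Per1 did not.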

How the data were processed

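The 8 BAT RNA-Seq libraries were grouped by the sample labels. The authors depleted ribosomal RNA, mapped paired reads of directional libraries to GRCm38 with TopHat2 and deposited FPKM per gene and library, made with Cufflinks on Ensembl release 87 genes, without pooling. The labels list replicates as separate samples and say no more on what a replicate is, so p-values measure the spread between these samples. The description of CD replicate 6 starts with the prefix of the cold experiment's libraries, and those of the other diet libraries with another. What the prefix stands for is not stated. The study's methods and the submitters' processing notes differ on the Cufflinks version (2.2.1 in the notes), and the authors' DESeq2 test on counts was not repeated. Positions and gene types came from GENCODE M21 (49109 genes matched).

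FPKM were tested as log2(FPKM + 1) with limma 3.58.1 (R 4.3.3, eBayes with trend), in the 4 libraries of each comparison, without covariate. Genes needed at least 0.1 FPKM in 2 of the 4 libraries, and X, Y and mitochondrial genes were left out because X genes are listed at 0 in 3 libraries. P-values were two-sided and Benjamini-Hochberg adjusted over all genes tested, and a call needed an adjusted p under 0.05 and a 2-fold change on this scale, which understates changes of low genes. All 10 members passed the filter in both comparisons. Tables and sequences were read with Python 3.11.15.

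The members and lists were chosen with earlier results of these data known. All members are named. Of the 4 further gene lists (response, receptor handling, metal and clock genes), genes past the threshold are named (the 6 largest at most), or else the 3 with the largest change, and the 3 genes most like Fkbp5, Zbtb16 and Mt2 by Pearson r. Pseudocounts of 0.1 and 0.5, other filters and scalings, library type as covariate, one fit over 8 libraries and leaving out each replicate were the alternatives.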

Additional observations from a re-analysis of the deposited data

How the results depend on the processing

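No pairing by replicate number was possible, because the numbers of 22 °C and 4 °C share none and those of CD and HFD share only 6. Library type, with 1 satellite-high and 1 satellite-low library in each group, was fitted as a covariate, which blocks on a feature of the libraries and not on numbered pairs. Each comparison rests on 2 libraries per group, and counts of calls moved widely. In the cold, 2 members passed as reported, 1 with a pseudocount of 0.1, 0 with no filter on low values, 6 with a filter of 1 FPKM, 7 after median centring, 7 with X, Y and mitochondrial genes kept, 4 with all 8 libraries in one fit, 8 with library type as covariate and 0 to 5 without single replicates (0 without 4 °C replicate 2, 1 without 4 °C replicate 11, 5 without 22 °C replicate 7). Under HFD, 3 passed with library type as covariate (Fkbp5, Zbtb16 and Hsd11b1) and 0 to 2 without single replicates. Over all genes, the 252 cold calls became 474 and 435 with pseudocounts of 0.1 and 0.5, 0 without a filter, 529 with 1 FPKM, 751 after median centring, 491 after quantile normalization, 575 with rescaled values, 920 with X, Y and mitochondrial genes, 439 with 8 libraries, 859 with library type and 1 to 767 without single replicates. The 12 HFD calls became 0 without a filter, with rescaled or quantile-normalized values and with X, Y and mitochondrial genes kept, 24 with 1 FPKM, 31 after median centring, 75 with 8 libraries, 745 with library type and 98 to 726 without single replicates. Where a replicate was left out, the lone library was assumed to vary like the other group. The cause was not tested.

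Among 655 alternative values of 41 gene results, 24 changed direction, all in genes with no call. Cold Nr3c1 became -0.032 after quantile normalization and -0.028 after rescaling. Cold Hsd11b1 became -0.16 after median centring, -0.45 after quantile normalization, -0.31 with rescaled values and -0.31 between satellite-high libraries, and ran from -0.15 to 0.36 without single replicates. Under HFD, Nr3c1 became -0.069 after quantile normalization and -0.19 after median centring (-0.14 to 0.49 without single replicates), and Mt1 0.16 between satellite-low libraries (-0.58 to 0.51). Mt2 became -0.21 after median centring, -0.031 after quantile normalization, -0.018 with rescaled values and -0.012 between satellite-high libraries (-0.62 to 0.91). Mtf1 became -0.0086 after median centring, and Dbp -1.22 between satellite-low libraries (-0.30 to 2.19). Fkbp5, Zbtb16, Sgk1, Per1, Klf9 and Cebpd kept a positive sign under every alternative run in both comparisons, as did Mt1 and Mt2 in the cold, and Hsd11b1 stayed lower under HFD.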
